A study of Mus musculus with 2 samples.

Results

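The genes described here are 34 genes of blood coagulation and fibrinolysis, taken by GENCODE M21 symbol from a named list, and all 34 were found among the 55536 annotated genes quantified in both libraries of this series. They cover fibrin formation, the vitamin K-dependent proteins and their modifying enzymes, cofactors, the contact system, coagulation inhibitors and fibrinolysis. Polyadenylated RNA was sequenced from liver of B6NCrl mouse embryos of mixed sex at 12.5 days of development. Pooled tissue of 120 embryos gave replicate 1 and of 88 embryos gave replicate 2, which the labels call biological replicates. No genotype change or treatment is given, and the 2 libraries form a single group, so levels of genes were compared within the tissue and no p-value was computed. Each library used 10 ng of RNA with ERCC spike-ins, the SMARTer kit for cDNA and Nextera tagmentation. RNA was extracted with the mirVana kit. Embryos were pooled and the whole organ was used, so fewer cells of a type and less RNA per cell cannot be told apart.

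Coagulation is a cascade of plasma proteases, most of them secreted by hepatocytes as inactive precursors, that ends when thrombin cuts fibrinogen into fibrin. Several of these proteases need a vitamin K-dependent modification to bind membranes, and their speed depends on non-enzymatic cofactors. Serpins and other inhibitors hold the cascade back, and plasmin, made from plasminogen, later dissolves the clot. In the embryo, liver parenchyma starts to make plasma proteins while the organ also hosts blood formation.

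Replicate 1 had a total expected count of 38293265 and replicate 2 one of 35399872, with spike-ins at 4.99% and 5.40% of TPM. TPM is a level per effective length, scaled to the same total in each library. Positions follow the mm10 assembly and M21. Means are given ± SD with n = 2 libraries. Counting intervals are exact 95% Poisson intervals of a count. They, and the limit of 3 counts set for a count of 0, cover counting error only, since amplified reads carry no molecular identifiers. That limit is lower than the upper end of the exact interval for 0 counts, which is 3.69. The tissue label was checked against markers: all 8 hepatoblast markers reached 10 TPM, with Afp at 5157 ± 131 TPM and Alb at 877 ± 10.8 TPM. Of 8 mature hepatocyte markers, 7 lay under 1 TPM and G6pc had 0 counts in both libraries. The 8 red cell markers summed to 239713 and 244146 TPM, so red cell RNA was abundant. The mesenchyme and granulocyte marker lists had medians of 35.9 ± 3.61 and 33.2 ± 1.38 TPM, and the lymphoid list 0.0675 ± 0.0247 TPM.

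Most of the coagulation and fibrinolysis genes were present, over a wide range of levels. In all, 27 of the 34 genes, or 79.4%, had a mean of 1 TPM or more, where 54.3% of the 22028 protein-coding genes did. At 10 TPM or more stood 19 of the 34 (55.9%) beside 32.1% of protein-coding genes, and at 100 TPM or more stood 8 (23.5%) beside 5.38%. The median level of the 34 genes was 16.3 ± 1.26 TPM, and that of all protein-coding genes was 1.81 ± 0.0177 TPM. Together the 34 genes held 1727 ± 43.9 TPM. The 10 highest, Serpinf2, Serpinc1, Fga, Fgg, Kng1, Fgb, Plg, F2, Serpind1 and Vkorc1, took 82.2% ± 0.0798 of that sum. Below 1 TPM lay Kng2, F8, Klkb1, F9, Plau, F3 and Serpina5. These 7 include the tissue factor and the haemophilia genes, while fibrinogen, prothrombin, plasminogen and antithrombin were all among the 8 highest.

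**Figure D1:**
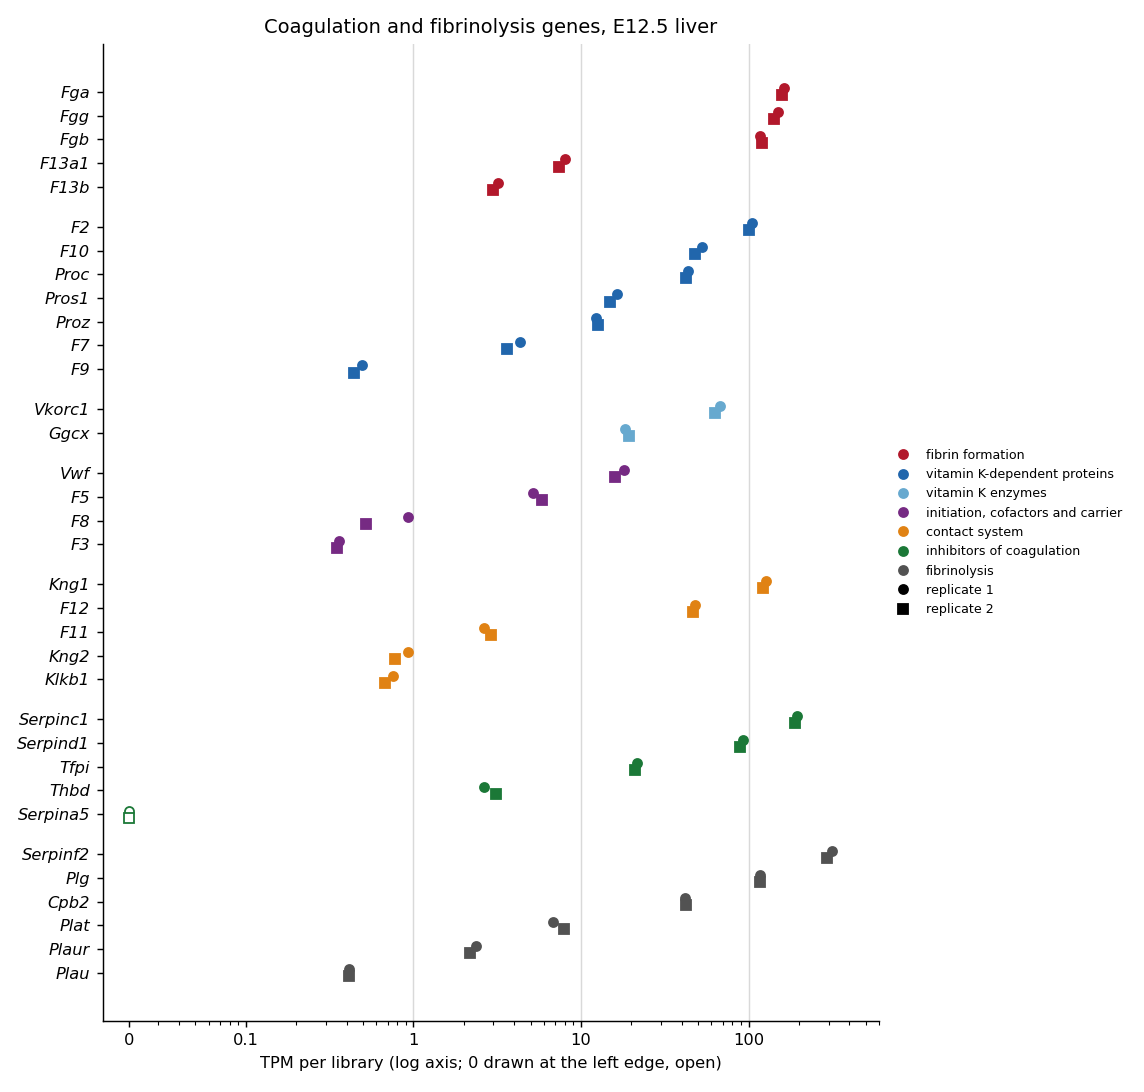
TPM of each of the 34 genes in replicate 1 (circles) and replicate 2 (squares) on a log axis, grouped by role, with 0 drawn open at the left edge. The 2 libraries lie close together for most genes, Serpinf2 is highest at 314 and 293 TPM, and Serpina5 is at 0 in both.

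Fibrin formation was described first. The 3 fibrinogen chain genes were all high and near each other, and they lie side by side on chromosome 3 with no other protein-coding gene between them. Fga, which encodes the alpha chain (ENSMUSG00000028001.16, 83026076 to 83033627, plus strand), had 162.8 and 158.6 TPM, with replicate 1 given before replicate 2 here and throughout. Fgg, the gamma chain gene (ENSMUSG00000033860.13, 83007724 to 83015049, plus strand), had 150.04 and 142 TPM. Fgb, the beta chain gene (ENSMUSG00000033831.5, 83040141 to 83049863, minus strand), had 116.6 and 119.6 TPM. Fgb was the lowest of the 3 in both libraries, and the order Fga, Fgg, Fgb was kept in both.

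Since the protein holds its chains in equal number, the ratios per length were taken. Fgb stood at 0.735 ± 0.0266 of Fga, and at 0.810 ± 0.0458 of Fgg. Fga stood at 1.101 ± 0.0225 times Fgg. Without the division by length the order changes, because the Fgb transcript is longer: its expected counts were 14138 and 13423, against 11494 and 10374 for Fga and 7871 and 6902 for Fgg. The 3 genes summed to 425 ± 6.51 TPM and made up 24.6% ± 0.247 of the TPM of all 34 genes, or 29.9% ± 0.412 of their counts.

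The promoter windows of the 3 fibrinogen genes are shown because the genes share a locus and have similar levels. They run from 250 bases before to 50 bases after the RefSeq start, on GRCm38.p6, 5′ to 3′ on the strand of the gene. Capitals mark matches to the HNF1 motif GTTAAT and the C/EBP motif TTGCNNAA on either strand, so that ATTAAC is the HNF1 motif read from the other strand.
Fga, chr3:83025903-83026202 (+): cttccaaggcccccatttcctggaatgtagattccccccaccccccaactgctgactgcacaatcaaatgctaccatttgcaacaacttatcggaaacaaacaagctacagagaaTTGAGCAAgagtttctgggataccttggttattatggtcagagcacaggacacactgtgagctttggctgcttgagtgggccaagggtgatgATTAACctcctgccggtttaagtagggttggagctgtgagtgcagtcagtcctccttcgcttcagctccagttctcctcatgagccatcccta
Fgb, chr3:83049814-83050113 (-): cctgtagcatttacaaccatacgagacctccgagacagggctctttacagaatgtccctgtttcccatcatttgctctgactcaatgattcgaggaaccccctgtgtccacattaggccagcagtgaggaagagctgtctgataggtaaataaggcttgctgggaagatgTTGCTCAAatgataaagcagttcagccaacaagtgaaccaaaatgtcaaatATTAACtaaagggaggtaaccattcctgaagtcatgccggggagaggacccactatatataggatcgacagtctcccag
Fgg, chr3:83007474-83007773 (+): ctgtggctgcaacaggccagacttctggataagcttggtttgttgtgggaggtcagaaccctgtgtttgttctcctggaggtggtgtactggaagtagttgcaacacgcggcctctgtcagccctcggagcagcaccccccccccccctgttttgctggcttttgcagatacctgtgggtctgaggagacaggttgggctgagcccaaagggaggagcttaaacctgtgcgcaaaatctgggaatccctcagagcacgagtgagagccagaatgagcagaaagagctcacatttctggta

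Fga and Fgb each held both motifs in the bases before the start, and the Fgg window held neither. In Fga the C/EBP match began 135 bases and the HNF1 match 43 bases before the start. In Fgb the same matches began 80 and 29 bases before it. The matches do not overlap each other. The RefSeq start of Fga lies 77 bases downstream of the M21 gene start, while those of Fgb and Fgg coincide with it. A match is only a run of letters: binding was not measured here.

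Factor XIII, the transglutaminase that cross-links fibrin, has catalytic A subunits and carrier B subunits from separate genes. F13a1 (chromosome 13), the A subunit gene, had 7.98 and 7.42 TPM, and F13b (chromosome 1), the B subunit gene, had 3.21 and 2.97 TPM. Both lay far below the fibrinogen genes in each library. F13a1 is known also from megakaryocytes and macrophages. All 8 megakaryocyte markers reached 1 TPM, with sums of 1043 and 921 TPM, and so did all 8 macrophage markers, with sums of 173 and 171 TPM. No defining marker of either list was at 0, and their part in the F13a1 level was not tested.

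Of the 7 genes for vitamin K-dependent proteins, 6 reached 1 TPM and 5 reached 10 TPM, and F9 alone lay under 1 TPM. Prothrombin, F2 (ENSMUSG00000027249.15, chromosome 2, 91625320 to 91636414), led with 104.9 and 101.1 TPM. F10, the factor X gene whose active product cuts prothrombin, had 52.5 and 47.7 TPM. F2 was thus 2.06-fold ± 0.0857 higher than F10. Proc, the gene of the anticoagulant protease protein C (chromosome 18), had 43.3 and 42.5 TPM. Pros1, the gene of its cofactor protein S (chromosome 16), had 16.4 and 14.9 TPM. Proz, the gene of protein Z, a cofactor for inhibition of factor X, had 12.3 and 12.6 TPM. The order F2, F10, Proc, Pros1, Proz held in both libraries.

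The lower genes of this group encode factor VII and factor IX. F7, whose product starts the cascade with tissue factor, had 4.35 and 3.64 TPM from 250 and 194 counts. F9, the haemophilia B gene (ENSMUSG00000031138.4, chromosome X, 59999464 to 60030759), had 0.490 and 0.440 TPM. Its 42 counts in replicate 1 have an interval of 30.3 to 56.8, and its 35 counts in replicate 2 one of 24.4 to 48.7. F9 was detected in both libraries, as the lowest of the 7 genes in each.

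F7, F10 and Proz lie in a row on chromosome 8, all on the plus strand, with 1498 bases between F7 and F10 and 4237 bases between F10 and Proz. Their levels differed although they adjoin: per length, F10 was 12.6-fold ± 0.726 higher than F7 and 4.03-fold ± 0.359 higher than Proz. By expected count F10 was 11.5-fold ± 0.803 higher than F7 and 2.22-fold ± 0.102 higher than Proz, so the size of the difference from Proz depends on the length used. Their promoter windows are shown in the same form as those of fibrinogen, as a set of neighbours with unequal levels.
F7, chr8:13025784-13026083 (+): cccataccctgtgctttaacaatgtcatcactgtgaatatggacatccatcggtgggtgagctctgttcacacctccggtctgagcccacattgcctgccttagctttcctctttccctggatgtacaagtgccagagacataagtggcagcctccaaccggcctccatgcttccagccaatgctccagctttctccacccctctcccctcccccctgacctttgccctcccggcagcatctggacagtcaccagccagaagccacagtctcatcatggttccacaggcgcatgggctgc
F10, chr8:13037058-13037357 (+): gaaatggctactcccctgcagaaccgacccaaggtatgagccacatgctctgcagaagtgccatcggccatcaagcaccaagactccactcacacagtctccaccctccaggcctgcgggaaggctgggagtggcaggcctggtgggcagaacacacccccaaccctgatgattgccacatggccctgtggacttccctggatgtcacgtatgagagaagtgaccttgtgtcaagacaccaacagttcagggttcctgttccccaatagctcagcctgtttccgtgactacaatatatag
Proz, chr8:13060658-13060957 (+): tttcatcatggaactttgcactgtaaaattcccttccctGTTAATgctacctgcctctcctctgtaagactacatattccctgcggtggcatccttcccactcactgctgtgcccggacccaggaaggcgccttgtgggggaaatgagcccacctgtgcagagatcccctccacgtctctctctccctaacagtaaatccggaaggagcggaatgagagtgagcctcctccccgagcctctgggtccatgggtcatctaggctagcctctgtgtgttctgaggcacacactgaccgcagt

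Of these 3 windows, only that of Proz held a match, an HNF1 motif that began 211 bases before the RefSeq start. The leading Proz transcript, Proz-201, starts at 13060965, beyond the end of that window at 13060957. The F10 window is set at the start of the transcript F10-202. The leading F10 transcript, F10-205, with 64.6% and 68.1% of F10 TPM, starts 530 bases downstream of F10-202. That start lies beyond the end of the window, and the bases just before it were not searched. Across the genes described here, RefSeq promoter windows of 300 bases were matched by symbol for 27 of 34, with 29 windows in all. Windows on chromosome 18 were left out for these genes, so Proc was not searched, but were kept among the windows of all genes. Plg, Plat, Plau, Kng1, Vwf and Thbd had no window. The HNF1 motif GTTAAT stood in 5 of the 29 (17.2%), in F2, F13b, Fga, Fgb and Proz, beside 7.10% of 32851 windows of all genes. The C/EBP motif TTGCNNAA stood in 11 (37.9%) beside 10.8%. The TATA motif TATAAA stood in 3 (10.3%) beside 13.6%, the GATA motif AGATAA in 2 (6.90%) beside 11.2%, and the HNF4 motif AAAGTCCA in 0 beside 1.25%. Both strands were searched for each motif, and no test was made of these shares.

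**Figure D2:**
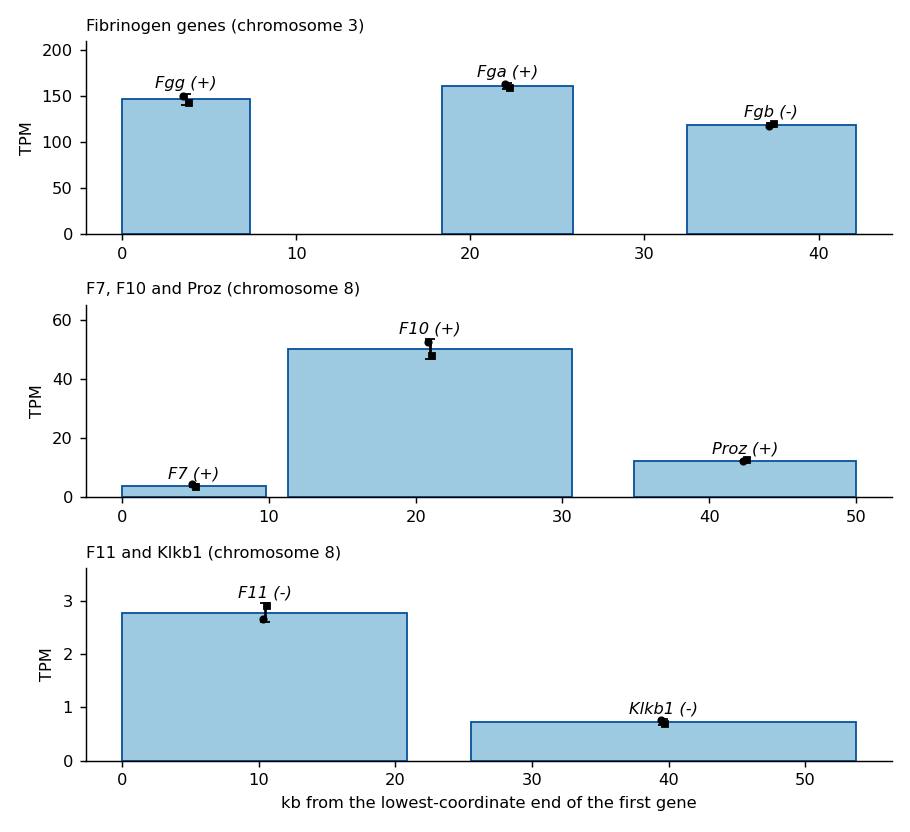
Bars span each gene along its chromosome in kb from the low-coordinate end of the first gene, and their height is the mean TPM of 2 libraries with SD (error bars), with replicate 1 as circles and replicate 2 as squares. The 3 fibrinogen genes stand at similar heights, F10 exceeds its neighbours F7 and Proz, and F11 exceeds Klkb1 as reads were divided here.

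The enzymes of the vitamin K cycle were both present. Vkorc1, the epoxide reductase that warfarin blocks (chromosome 7), had 67.4 and 62.7 TPM, and Ggcx, the gamma-glutamyl carboxylase (chromosome 6), had 18.3 and 19.3 TPM. Vkorc1 was 3.47-fold ± 0.307 higher per length. By expected count the order was the other way, at 1428 and 1230 for Vkorc1, a short gene, and 1606 and 1475 for Ggcx.

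Tissue factor, the cofactors and their carrier all lay below F2 and F10 in both libraries. F5, the factor V gene (chromosome 1), had 5.20 and 5.88 TPM. F8, the haemophilia A gene (ENSMUSG00000031196.13, chromosome X, 75172715 to 75382615), had 0.930 and 0.520 TPM from 90 and 56 counts. Transcript models annotated as incomplete held 66.3% and 59.6% of that level. The highest of them, F8-203 of 676 bases, held 0.470 and 0.310 TPM from 8.92 and 5.42 counts. F3, the gene of tissue factor (chromosome 3), which starts coagulation outside vessels, had 0.360 and 0.350 TPM from 21 and 18 counts. Vwf, whose product carries factor VIII and tethers platelets (chromosome 6), had 18.1 and 16.0 TPM and was the only gene of these 4 above 10 TPM. Of that level the full-length transcript Vwf-203 held 6.79 and 6.21 TPM, and Vwf-209, of 456 bases, held 5.35 and 4.08 TPM. The place of Vwf above 10 TPM thus rests in part on models shorter than the full-length one. Vwf was 25.1-fold ± 8.05 higher than F8 per length (19.4-fold and 30.8-fold in the libraries), and 32.2-fold ± 6.96 higher by expected count.

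Vwf is known from endothelium and megakaryocytes, and F8 from endothelium. The 8 endothelial markers all reached 1 TPM, at 6.79 to 94.4 TPM, and summed to 220.4 and 200.9 TPM. Egfl7 alone had 100.4 and 88.3 TPM of these sums. By TPM, Pecam1, Tek and Lyve1 were higher in replicate 2 and the other endothelial markers in replicate 1. The sums of the megakaryocyte markers are given above beside F13a1. No endothelial marker was at 0. Their part in the levels of Vwf and F8 was not tested.

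The contact system was uneven. Kng1, a kininogen gene (ENSMUSG00000022875.18, chromosome 16, 23057865 to 23082078), had 126.8 and 121.6 TPM, and F12, the factor XII gene that starts the contact pathway (chromosome 13), had 47.8 and 46.8 TPM. F11, the factor XI gene, had 2.65 and 2.90 TPM, so F12 was 17.1-fold ± 1.36 higher. Klkb1, the plasma prekallikrein gene, had 0.760 and 0.680 TPM. Kng1 and F12 were thus above 10 TPM, and F11 and Klkb1 were under 10 TPM.

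The mouse has a second kininogen gene, Kng2 (chromosome 16, 22985854 to 23029482), next to Kng1 and on the opposite strand, with 28382 bases between them. Kng2 had 0.930 and 0.780 TPM, so Kng1 held 99.3% ± 0.0640 of the summed kininogen level. The posterior SD of the Kng2 count, which describes how uncertain the division of shared reads was, came to 2.02 of 41.9 counts and 1.82 of 29.98 counts. Kng2 also overlaps a pseudogene on its strand, Gm6493, with 11.4 and 3.87 counts.

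Klkb1 had the largest posterior SD relative to its count among the 34 genes. It lies on the minus strand of chromosome 8 (ENSMUSG00000109764.1, 45266689 to 45294859), 4657 bases from F11, and overlaps the protein-coding gene Gm45753 (45269671 to 45308466) on the same strand. Klkb1 was given 127.9 and 105.9 counts, with posterior SDs of 12.6 and 12.3 counts. Gm45753 was given 127.1 and 85.6 counts, with posterior SDs of 12.9 counts in both libraries. The summed level was 2.23 and 1.75 TPM, from summed counts of 254.9 and 191.5. F11 had 185 and 176 counts, fewer than that sum in both libraries. F11 was 3.88-fold ± 0.550 higher than Klkb1 per length as divided here, and 1.55-fold ± 0.153 higher by expected count, since the single Klkb1 model is 5249 bases long. Apart from Klkb1 and Kng2, the posterior SD stayed at or below 1% of the count in every gene with counts, and it was 0 in both libraries for 25 of the 34.

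Among the inhibitors of coagulation the serpins for thrombin were highest. Serpinc1, the antithrombin gene (ENSMUSG00000026715.12, chromosome 1, 160978585 to 161005863), had 195.1 and 189 TPM, and was 1.86-fold ± 0.00786 higher than its main target F2 per length. By expected count it stood at 0.887 ± 0.00890 of F2, and its level is taken up again with the transcripts. Serpind1, the heparin cofactor gene (chromosome 16), had 93.2 and 89.4 TPM. Tfpi, the tissue factor pathway inhibitor (chromosome 2), had 21.6 and 20.9 TPM. Thbd, thrombomodulin, the endothelial receptor that turns thrombin towards protein C (chromosome 2), had 2.65 and 3.12 TPM. Serpina5, the protein C inhibitor (chromosome 12), had 0 counts in both libraries, where the limit of 3 counts stands at 0.0445 and 0.0481 TPM. Tfpi and Thbd are known from endothelium, whose markers are given above beside Vwf, and their part in these levels was not tested. In adult mice Serpina5 is known mainly from the reproductive tract, whereas in humans the liver makes it.

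In fibrinolysis the plasmin inhibitor stood above plasminogen, and the activators were low. Serpinf2, the antiplasmin gene (ENSMUSG00000038224.12, chromosome 11, 75431732 to 75439591), had 314 and 293 TPM from 20388 and 17487 counts, which made it the highest of the 34 genes and number 331 among protein-coding genes. Plg, the plasminogen gene (ENSMUSG00000059481.5, chromosome 17, 12378608 to 12419385), had 116.2 and 117 TPM. Serpinf2 was 2.61-fold ± 0.140 higher than Plg. Cpb2, the carboxypeptidase that trims fibrin and slows its lysis (chromosome 14), had 41.9 and 42.3 TPM. Plat, the tissue-type plasminogen activator (chromosome 8), had 6.78 and 7.93 TPM. Plau, the urokinase-type activator (chromosome 14), had 0.410 TPM in both libraries from 30 and 28 counts. Plaur, the urokinase receptor (chromosome 7), had 2.35 and 2.17 TPM. Plat was 17.9-fold ± 1.98 higher than Plau, and both activators lay below plasminogen and its inhibitor.

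A wider list of 40 genes of the pathway, such as receptors, secretion factors and other inhibitors, gave the surroundings of these genes. A level of 1 TPM was met by 33 of the 40, 10 TPM by 25 and 100 TPM by 2. Their median level was 20.9 TPM in replicate 1 and 21.1 TPM in replicate 2. P4hb, a disulphide isomerase, was highest with 382 ± 15.7 TPM. Vtn, the vitronectin gene, had 179.6 ± 10.6 TPM, and Anxa2 and S100a10, whose products form a plasminogen receptor, had 79.9 ± 3.25 and 74.9 ± 1.75 TPM. Among the 7 under 1 TPM were the protease receptor gene F2rl1 with 0.10 and 0.060 TPM and the histidine-rich glycoprotein gene Hrg with 0.110 and 0.0800 TPM. Stab2 stood both in this list and among the endothelial markers.

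**Figure D3:**
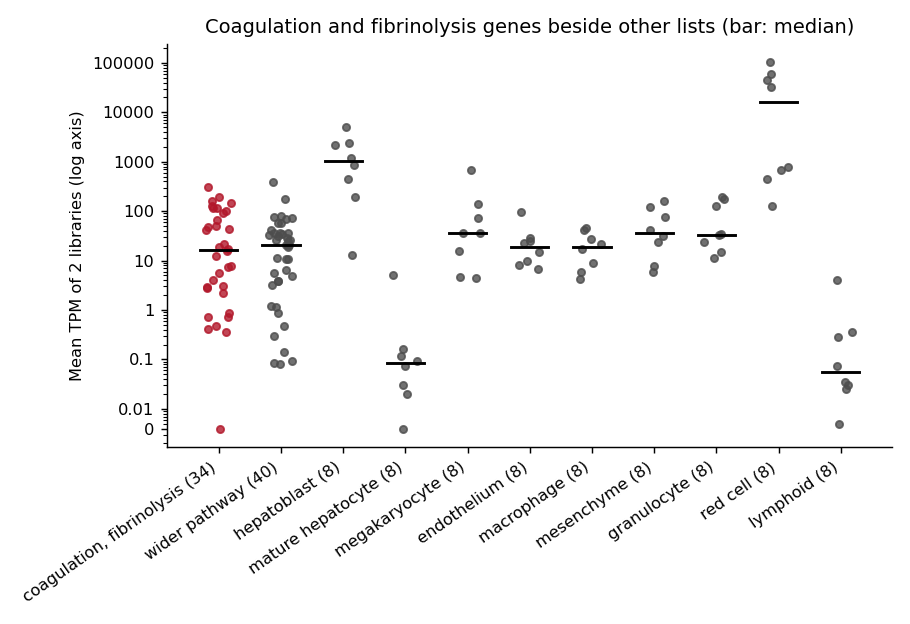
Mean TPM of 2 libraries for each gene (points, log axis, 0 drawn at the bottom tick) in the 34 coagulation and fibrinolysis genes, the wider pathway list and 9 lists of cell type markers, with the median of each as a bar. The 34 genes run from 0 to 304 TPM. Their median lies above those of the mature hepatocyte and lymphoid markers and below those of all other lists.

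Transcripts were then compared, since several of these genes make proteins with alternative ends. Among 23 genes at 1 TPM or more with several annotated transcripts, shares were averaged over the libraries. The leading transcript then took a median of 82.96% of the TPM of the gene. In each library alone that median was 82.98% and 79.5%, with an SD of 2.45 between them. In 10 of the 19 genes at 10 TPM or more, 2 or more transcripts passed 10% of the gene in each library. Shares of transcripts that overlap rest on the division of reads by the authors' quantification.

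Both alternative ends known for fibrinogen were represented. For Fga, the transcript Fga-201, with 1671 coding bases, took 64.7% and 64.5% of TPM. Fga-202 took 35.3% and 35.5%, has 2367 coding bases and ends in an exon of its own at 83032701 to 83033627. This is the longer form of the alpha chain, known as alpha-E. For Fgg, Fgg-201 took 78.3% and 76.5%, and Fgg-202, whose last exon runs on into an intron of Fgg-201, took 21.7% and 23.5%. Fgg-202 has the structure of the gamma-prime form known in humans and rats. In both genes the split between transcripts was alike in the 2 libraries.

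The coding ends of the 2 Fgg transcripts are shown because they are what sets the forms apart. They share 1297 coding bases, after which Fgg-201 has 11 and Fgg-202 has 32 bases of its own before the stop codon. The last 24 shared bases are in lower case and the bases that differ are in capitals, from mm10 with the M21 annotation, chromosome 3, plus strand, 5′ to 3′.
Fgg-201: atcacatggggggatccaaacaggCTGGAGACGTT
Fgg-202: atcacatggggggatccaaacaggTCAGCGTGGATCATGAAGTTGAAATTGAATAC

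Kininogen showed a similar choice of ends. Kng1-202, with 1296 coding bases, took 63.4% and 63.5% of Kng1 TPM, Kng1-203, with 1440, took 21.3% and 19.6%, and Kng1-201, with 1983, took 15.3% and 16.9%. Alternative ends of this gene are known to give a high and a low molecular weight kininogen, of which the longer is the cofactor of the contact system. The transcript with the longest coding part was the least abundant of the 3 in both libraries.

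The Serpinc1 level rested on incomplete transcript models. Serpinc1-205 took 49.6% and 49.8% of TPM and Serpinc1-204 took 47.6% and 47.3%. Both are annotated as incomplete, with lengths of 1044 and 742 bases, and Serpinc1-201, the complete protein-coding transcript of 4970 bases, took 2.48% and 2.65%. Because TPM divides by the effective length, which was 901 bases for Serpinc1 in replicate 1, the rank of the gene depends on these models. Serpinc1 was number 2 of the 34 genes by TPM, number 7 by expected count per 1000 coding bases and number 9 by expected count, and both count measures were added after the data were seen.

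Other genes split between starts, ends or partial models. F10-205, which starts 530 bases downstream of F10-202 and has 957 coding bases, took 64.6% and 68.1% of F10 TPM, and F10-202, with 1443, took 20.2% and 22.3%. Serpind1-202 took 59.5% and 53.5% and Serpind1-201 took 40.5% and 46.5%, with 1434 coding bases in each. Serpinf2-201 took 79.4% and 71.2% and Serpinf2-202 took 12.1% and 19.2%, again with coding parts of equal length. For F10 the shorter coding part led, whereas in Serpind1 and Serpinf2 the named transcripts have coding parts of equal length.

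In Tfpi, transcripts that end near 84432855 took 85.4% and 85.6%, and those that end at 84440140 took 14.1% and 14.4%. The Tfpi ends thus had the same order in both libraries, while the single transcripts Tfpi-201, at 50.1% and 41.9%, and Tfpi-208, at 1.67% and 10.04%, varied more. Proz-201 took 79.9% and 74.3%, and Proz-204, annotated for nonsense-mediated decay, took 13.4% and 10.7%. The full-length Vwf-203 of 8834 bases took 37.6% and 38.8% of Vwf TPM, while the processed transcript Vwf-209 of 456 bases took 29.6% and 25.5% from only 62.4 and 44.0 counts. For Vwf, the short model therefore weighs far more in TPM than in counts, where Vwf-203 had 1938 and 1640.

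**Figure D4:**
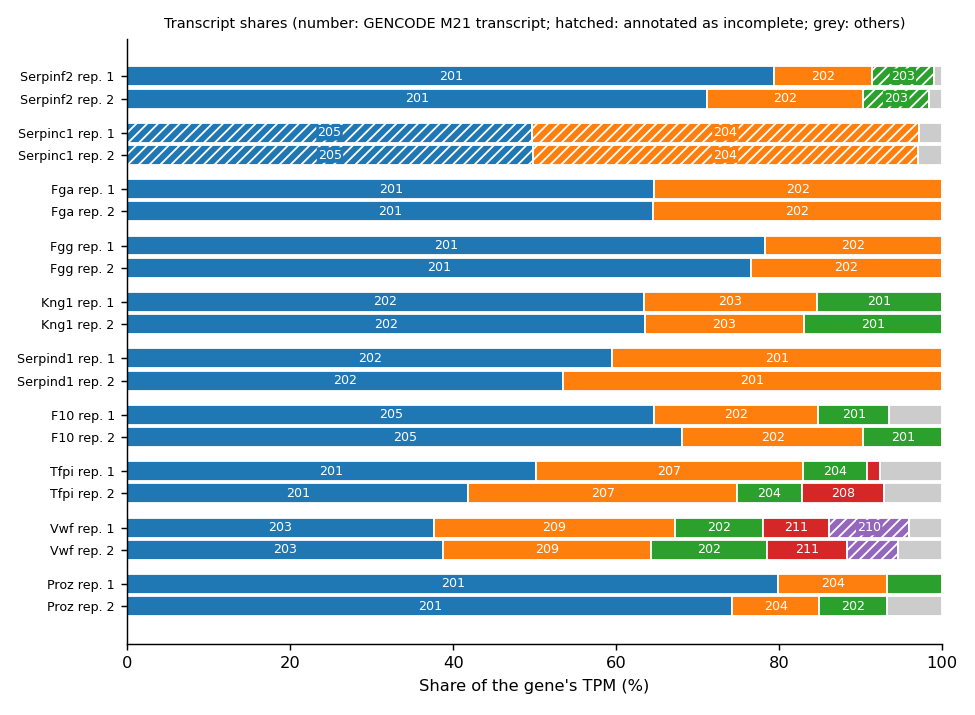
Share of the TPM of each gene (0 to 100%) taken by its transcripts in replicate 1 and replicate 2, for the 10 genes in which 2 or more transcripts passed 10% in each library; numbers are M21 transcript numbers, hatching marks models annotated as incomplete and grey the remaining transcripts. Fga and Fgg split the same way in both libraries, and nearly all of Serpinc1 is hatched.

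The 2 libraries were compared gene by gene after TMM scaling, as a comparison of pools and not of conditions. To be called, a gene had to differ by more than 1.5-fold, with the split expected from the scaling outside the exact 95% binomial interval of its count split. None of the 33 genes with a mean of 10 counts or more was called, where 4.38% of 17343 genes of any kind and 3.44% of protein-coding genes were. The median log2 ratio of replicate 1 over replicate 2 was 0.05 over the 33 genes and 0.00 over all genes. Of the 33, 24 were higher in replicate 1 and 9 in replicate 2, and 24 lay within 10% of equality, as did 59.6% of all genes compared. Serpina5, with 0 counts, was not compared.

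The 3 largest ratios were those of F8, Kng2 and Plat. F8 had a log2 ratio of 0.57, just under the fold used, and replicate 1 held 61.6% of its counts, with an interval of 53.2% to 69.6% that lay above the expected 52.0%. With spike-in scaling, which moved the median of all genes to 0.12, F8 was called. Kng2 had a log2 ratio of 0.36 and 58.3% of its counts in replicate 1, with an interval of 46.1% to 69.8% that includes the expected split. Plat had a log2 ratio of -0.28 from 513 and 576 counts, and the interval of its split, 44.1% to 50.1%, lay below the expected value. The other 30 genes had smaller ratios, and fibrinogen, prothrombin and plasminogen were within 10% of equality. Among those 30, the intervals of F2, F10, Fgg, Kng1, Pros1, Serpinf2 and Vwf also lay above the expected split. Those of F5, Fgb and Thbd lay below it.

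**Figure D5:**
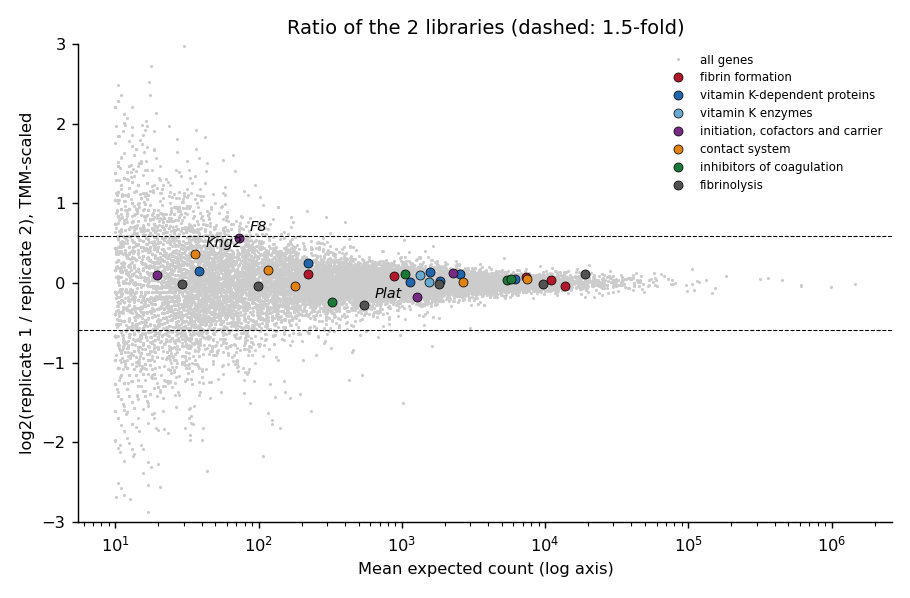
Log2 ratio of replicate 1 over replicate 2 after TMM scaling against the mean expected count (log axis), for all 17343 genes compared (grey) and 33 coagulation and fibrinolysis genes coloured by role. Dashed lines mark 1.5-fold, 20 genes of the background lie beyond the axis, and F8, with a log2 ratio of 0.57, is the gene of the 33 farthest from 0.

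Each library had also been quantified with GENCODE M4, an earlier release, and the levels of these genes were compared between the releases. Under M4, 33 of the 34 genes were found by identifier, Klkb1 being the exception. Of 27 genes at 1 TPM or more under either release, none passed 1.5-fold between M21 and M4 in both libraries, where 5.51% of 13235 genes did. The median log2 ratio of M21 over M4, with 1 TPM added, was -0.05 over the 27 genes and -0.04 over all genes. Proz moved most, with 12.3 and 12.6 TPM under M21 and 14.0 and 13.9 TPM under M4. Proc had 43.3 and 42.5 TPM under M21 and 39.9 and 39.5 TPM under M4, and Kng1 had 126.8 and 121.6 TPM under M21 and 137 and 131.4 TPM under M4. The same reads underlie both releases, so the libraries are not independent evidence on this difference. For Klkb1, the identifier that M21 gives to Gm45753 had 1.47 and 1.07 TPM under M21 and 2.93 and 2.33 TPM under M4.

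Strand use in the counting is not given in the sources used here, so reads of overlapping genes on opposite strands cannot be told apart. Of the 34 genes, 11 overlap another annotated gene and 5 overlap a gene with counts on their own strand. The opposite-strand neighbours with the most counts were Pi4ka, which spans Serpind1 and had 2482 and 2352 counts, and Fundc2, which overlaps the start of F8 and had 1402 and 1370 counts. Among the F8 transcripts only F8-203 reaches into Fundc2, and it held 8.92 and 5.42 of the 90 and 56 F8 counts. The part of that overlap in the F8 level was not tested.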

How the data were processed

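Expected counts, TPM and their posterior values were taken as deposited, per the file headers, from the gene and transcript quantifications of 2 libraries under GENCODE M21 and M4 on mm10. The deposited expected counts are reads divided by the authors among genes or transcripts and need not be whole. The deposited TPM values are the authors' length-scaled levels. The deposited posterior SD describes the uncertainty of the division and was used per the file headers. Aligner and quantifier: not given in the sources used here. M21 was used except where M4 is named, and M4 genes were matched by identifier, since that table was read without symbols. No per-sample column of another series was used.

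The genes, lists and alternatives were chosen with earlier results of these data known. Named by rule were all 34 genes, the 4 highest and up to 3 low genes of the wider list, the 3 largest differences between libraries and between releases, and genes at 10 TPM or more with 2 transcripts at 10% or more. A gene that the rule selects is not reported here.

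Libraries were scaled by TMM in edgeR 4.0.16 with a prior count of 0.5 and a minimum mean of 10 expected counts, which were rounded to whole numbers for the binomial interval. Releases were compared as log2(TPM + 1) differences in each library. Entries with bare-number identifiers (26248) and spike-ins were left out of gene counts. Shares, ratios and intervals were computed with pandas 2.3.3 and SciPy 1.17.1, and promoters came from RefSeq. The 2 libraries allow no p-value. Alternatives were DESeq2 1.42.0 size factors, total and spike-in scaling, other minimums, prior counts, pseudocounts and folds, posterior mean TPM, TPM without spike-ins, M4 and each library alone.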

Additional observations from a re-analysis of the deposited data

How the results depend on the processing

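The numbers of genes at 10 and 100 TPM were 19 and 8 under every alternative run, that at 1 TPM was 28 with posterior mean TPM and 27 otherwise, and under M4 or with posterior mean TPM the fibrinogen ratios moved by less than their spread. By expected counts, without the division by length, Fgb over Fga was 1.26 and Fgb over Fgg 1.87, both above 1. The median under M4 was 17.7 TPM over the 33 genes found there, and over those same 33 genes it was 17.0 TPM under M21. Under M4 the Kng1 share of kininogen TPM was 99.4%, and with posterior mean TPM that share was 98.9%. By expected counts fibrinogen held 29.9% of the 34 genes. The median share of the leading transcript was 77.4% with posterior mean TPM and ran from 79.5% to 82.98% with either library left out. Between libraries, spike-in scaling called 1 of the 33 genes, F8, and moved the median log2 ratio to 0.172 for these genes and 0.12 for all genes. A change of scaling moves the ratio of every gene by the same amount, so the shared shift follows from the method. The median log2 ratio of the 33 genes was 0.0571 with DESeq2 size factors and 0.0486 with total counts. No other alternative called any of the 33 genes between libraries, or any between releases. The rank of Serpinc1 was 7 by expected count per 1000 coding bases and 9 by expected count. These ranks, the ratios of counts and the median over 33 genes were chosen after seeing the data. No paired analysis was possible because the labels give a single group. With 2 libraries, spread is known only roughly, and genes with few counts, such as F3, F8, F9 and Plau, have wide counting intervals.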
